A study of Mus musculus with 2 samples.

Results

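The nuclear genes for the subunits of the respiratory chain and of ATP synthase were examined in ischemic gastrocnemius muscle of WT and *Mapk10*-/- mice. A gene was included when its symbol starts with Ndufa, Ndufb, Ndufc, Ndufs, Ndufv, Sdha to Sdhd, Uqcr, Cyc1, Cox4 to Cox8 or Atp5, without the assembly factors of the Ndufaf and Sdhaf families and without pseudogenes. This gave 80 of 22180 genes, each read by its brightest probe among the probes with 1 gene symbol. They comprise 34 genes of complex I, 4 of complex II, 8 of complex III, 17 of complex IV (cytochrome c oxidase) and 17 of ATP synthase. A further 8 genes of the rule, *Cox6c*, *Ndufb2*, *Ndufb4*, *Ndufb4b*, *Ndufb4c*, *Ndufs6*, *Ndufs6b* and *Uqcr10*, were read only by probes that carry several symbols, and *Ndufb1* was not analysed here.

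The WT array and the *Mapk10*-/- array (whole-body loss of JNK3) each held RNA pooled from 3 male C57Bl6/J mice aged 8 to 12 weeks, bred from heterozygous parents, all taken on day 3 after unilateral hindlimb ischemia under ketamine and xylazine. The labels give the tissue as gastrocnemius and also as gastrocnemius with thigh adductor. Since each genotype was read on 1 array, no test could be made, and the spread between mice was not measured. The deposited values are processed signals on a linear intensity scale. Each result is a log2 difference, the *Mapk10*-/- value minus the WT value, and a fixed fold of 1.5 (0.58 on the log2 scale) stands in place of a test.

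The only error that could be computed is the disagreement between both probes of a gene. It was computed over 595 genes with 2 probes whose brighter probe reached the 10th percentile of the mean signals of the subunits (71.3). Over this set, with no limit on the dimmer probe, the SD for 1 probe was 0.29, called the technical SD below. It leaves out any error that all probes of an array share. *Mapk10* itself was dim, with a signal of 25.2 on the WT and 17.7 on the *Mapk10*-/- array, so it is no firm check of the genotype. *Xist*, the RNA of the inactive X chromosome, had a signal of 554.0 on the WT and 23.0 on the *Mapk10*-/- array, and Y-linked *Uty* had 55.4 and 137.1, although the labels describe male mice. The sex of the pooled mice and their genotype cannot be told apart in any value below.

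The respiratory chain passes electrons from NADH and succinate to oxygen and pumps protons across the inner mitochondrial membrane, and ATP synthase uses the proton gradient to make ATP. Complex I oxidises NADH, complex II oxidises succinate, complex III hands electrons from ubiquinol to cytochrome c, and complex IV reduces oxygen to water. Most subunits are encoded in the nucleus, and a small set of core subunits is encoded in mitochondrial DNA. Skeletal muscle fibres are rich in these complexes, slow and oxidative fibres more than glycolytic ones. In striated muscle 3 subunits of cytochrome c oxidase are present largely as muscle isoforms, encoded by *Cox6a2*, *Cox7a1* and *Cox8b*, whereas most other tissues use *Cox6a1*, *Cox7a2* and *Cox8a*.

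Nearly all subunit genes had a higher signal on the *Mapk10*-/- array, most of them by a small step. Of the 80 genes, 75 had a difference above 0, against 47.8% of all genes and 58.9% of the 9568 genes whose mean signal reached the 10th percentile of the subunits (71.3). The median difference was 0.42, or 1.33-fold, against 0.00 over all genes and 0.06 over the brighter 9568. The central 50% of the subunit genes lay between 0.25 and 0.53, a span of 0.27 that compares with 0.37 for the brighter genes. A difference of at least 1.5-fold was reached upward by 15 subunit genes and downward by none. The same fold upward was passed by 4.1% of all genes and 6.52% of the brighter genes, and downward by 3.69% and 2.42%. Most single differences were thus near the technical SD, with 57 genes above it and 22 within it on either side of 0.

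The shift was present across the range of signals. The 27 subunit genes with the lowest mean signals (8.64 to 182.8) had a median of 0.20, and 22 of them were above 0. The next 26 had a median of 0.46 and the 27 brightest one of 0.44, and all genes of both classes were above 0. Other genes of the same 3 signal ranges had medians of -0.02, 0.06 and 0.01, with 45.7%, 58.4% and 51.8% above 0. Over centring, loess and quantile normalization of the same arrays, the median of the subunit genes ran from 0.37 to 0.48, with 76 to 78 genes above 0.

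**Figure D1:**
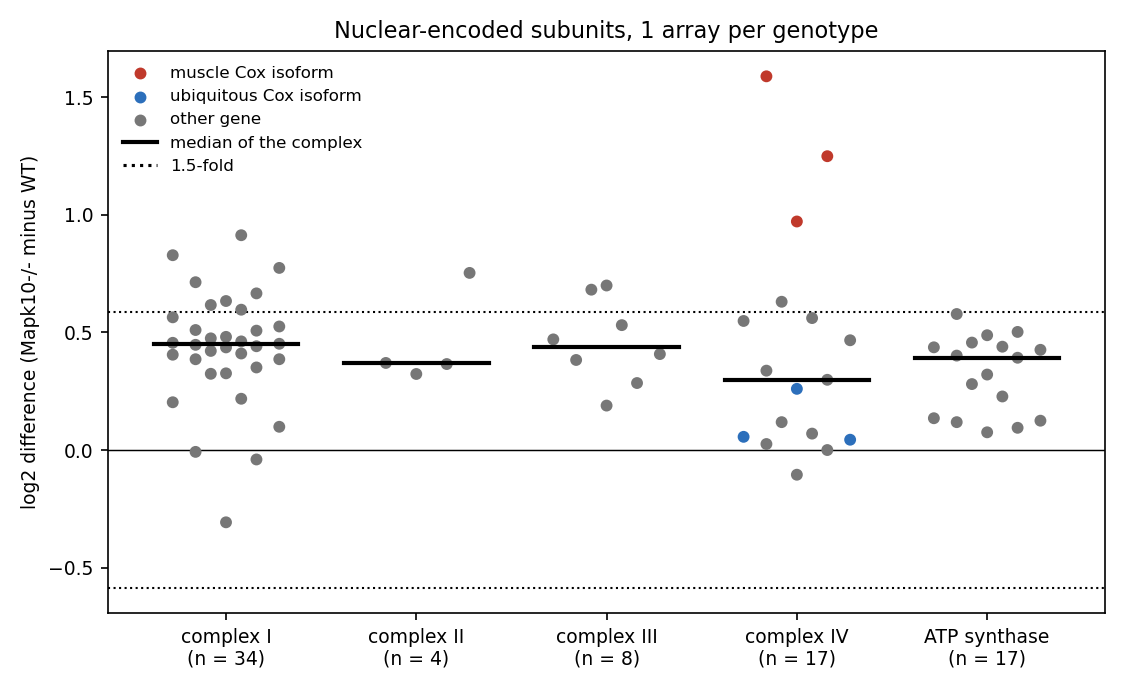
Log2 difference (*Mapk10*-/- minus WT, 1 array per genotype) of each of the 80 subunit genes by complex. Points are genes, thick bars are the medians (0.45, 0.37, 0.44, 0.30 and 0.39 from complex I to ATP synthase), and dotted lines mark 1.5-fold, passed upward by 15 genes and downward by none.

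The medians of the 5 complexes lay between 0.30 and 0.45. Complex I stood at 0.45, complex III at 0.44, ATP synthase at 0.39, complex II at 0.37 and complex IV at 0.30. The technical SD is that of a single probe and not of such medians, and no test of the order was possible. The order of the other complexes moved with the processing, whereas complex IV had the lowest median in all 7 alternatives run. That median counts 4 isoforms of other tissues, whose own median was 0.05, and *Cox7a2l*, which is no subunit of the free enzyme. Over the ubiquitous isoforms and the subunits without a pair of muscle and ubiquitous isoforms the complex IV median was 0.34. The 6 subunits without such a pair alone had a median of 0.51. Complexes II, III and ATP synthase had no gene below 0, complex I had 3 and complex IV had 1, with another at exactly 0. The SD between genes was 0.47 in complex IV, against 0.25 in complex I, 0.18 in complex III and 0.16 in ATP synthase. Without the muscle isoforms *Cox6a2*, *Cox7a1* and *Cox8b* it was 0.24 in complex IV, close to complex I.

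Complex I is an L-shaped enzyme whose matrix arm takes electrons from NADH and whose membrane arm pumps protons. The highest difference belonged to *Ndufb11*, an X-linked membrane arm subunit, with a signal of 41.4 on the WT and 78.0 on the *Mapk10*-/- array (0.91, or 1.88-fold). Its WT signal was under the WT array median of 43.2. With 16 added to each value *Ndufb11* was at 0.71, under *Ndufa5* (0.76) and *Ndufs7* (0.75). *Ndufa5*, an accessory subunit of the matrix arm, had 131.7 and 233.8 (0.83). *Ndufs7*, which carries the last iron-sulphur cluster before ubiquinone, had 476.3 and 814.8 (0.77). *Ndufv1*, the subunit that binds FMN and NADH, had 272.4 and 446.8 (0.71). Both redox ends of the matrix arm were therefore among the 4 highest values of the complex. *Ndufa13*, also known as GRIM-19, stood at 0.67, *Ndufc1* at 0.63, *Ndufa9* at 0.62 and *Ndufa6* at 0.60, the last of the 8 genes past 1.5-fold. The last 3 of these were under 1.5-fold after loess (0.57, 0.58 and 0.55) and after quantile normalization (0.56, 0.57 and 0.53), and *Ndufa6* also with 16 added to each value.

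The other core subunits of the matrix arm lay closer to the median. *Ndufs1*, the largest iron-sulphur subunit, had 261.9 and 365.6 (0.48), and *Ndufs3* had 86.6 and 118.5 (0.45). *Ndufv2*, the iron-sulphur partner of *Ndufv1*, was at 0.41 and *Ndufs8* at 0.41. All 6 measured core subunits were above the technical SD, with a median of 0.47, and the 26 accessory subunits had a median of 0.44. Matrix arm and membrane arm genes did not separate, with medians of 0.46 over 14 genes and 0.45 over 17. The accessory matrix arm genes *Ndufa12* (0.46), *Ndufs4* (0.39), *Ndufa2* (0.39), *Ndufa7* (0.33) and *Ndufv3* (0.20) filled the range below. The value of *Ndufa12* rests on the probe used, since its dimmer probe was at -0.06. *Ndufab1*, the mitochondrial acyl carrier protein found in both arms, was at 0.42.

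Membrane arm genes showed the widest range of complex I. *Ndufb9*, with 1325 and 1906, was at 0.53, *Ndufb5* at 0.56, *Ndufb10* at 0.51, *Ndufa3* at 0.47, *Ndufa11* at 0.45, *Ndufa10* at 0.44 and *Ndufb6* at 0.44. The dimmer probe of *Ndufa11* gave 0.05. X-linked *Ndufa1* had 267.1 and 366.4 (0.46). Lower down were *Ndufa8* (0.35), *Ndufb3* (0.32), *Ndufc2* (0.22) and *Ndufb8* (0.10). *Ndufb7* had nearly equal signals, 178.6 and 177.7 (-0.01), and *Ndufs5* had 55.5 and 54.0 (-0.04). Both changed sign after centring on the median, and a brighter probe that *Ndufs5* shares with its pseudogene gave 0.43. These 2 genes are therefore not distinguishable from 0 here.

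The lowest value of all 80 genes was that of *Ndufa4l2*, with 155.4 on the WT and 125.6 on the *Mapk10*-/- array (-0.31). *Ndufa4l2* is a hypoxia-induced paralogue of *Ndufa4*, and *Ndufa4* is now counted as a subunit of cytochrome c oxidase rather than of complex I. *Ndufa4* had 1072 and 1524 (0.51). The pair thus differed in direction, in all 7 alternatives too. Without both genes the complex I median stayed at 0.45.

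Complex II, succinate dehydrogenase, is encoded entirely in the nucleus and also belongs to the citric acid cycle. *Sdhc*, a membrane anchor, had 257.8 on the WT and 434.6 on the *Mapk10*-/- array (0.75, or 1.69-fold). The flavoprotein gene *Sdha* had 845.8 and 1093 (0.37), the other anchor *Sdhd* had 440.2 and 567.2 (0.37), and the iron-sulphur subunit gene *Sdhb* had 248.4 and 310.9 (0.32). *Sdhc* stood above the other 3 genes, which lay close together.

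In complex III the highest values were those of *Uqcrc1*, a core protein on the matrix side, with 758.9 and 1233 (0.70), and of *Cyc1*, cytochrome c1, with 198.4 and 318.3 (0.68). Both passed 1.5-fold. *Uqcrc2*, the partner of *Uqcrc1*, had 563.2 and 813.9 (0.53), and *Uqcrfs1*, the Rieske iron-sulphur protein, had 109.6 and 151.8 (0.47). The 2 nuclear genes whose products carry redox centres, *Cyc1* and *Uqcrfs1*, and the 2 core protein genes were thus the 4 highest among the 8 genes read by probes with 1 symbol. The small subunits among these 8 followed, with *Uqcrh*, the hinge protein, at 0.41, *Uqcrq* at 0.38, *Uqcrb* at 0.28 and *Uqcr11* at 0.19. The order does not hold for the small subunit *Uqcr10* if its shared probe is counted. That probe, which also carries the symbol *Gm6293*, had 76.9 and 164.1 (1.09), above all 8 genes. Which of both genes it reads was not tested.

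Within cytochrome c oxidase the muscle isoforms and the ubiquitous isoforms separated. *Cox8b* had a signal of 236.1 on the WT and 710.2 on the *Mapk10*-/- array, 3.01-fold higher (1.59), the highest difference of all 80 genes. *Cox7a1* had 205.8 and 489.2, 2.38-fold higher (1.25). *Cox6a2* had 1452 and 2848, 1.96-fold higher (0.97). These were the 3 highest values among all the subunit genes, each more than 3 technical SDs above 0. Their ubiquitous counterparts stayed within 1 technical SD of 0. *Cox8a* had 926.5 and 955.0 (0.04), *Cox6a1* had 2483 and 2582 (0.06), and *Cox7a2* had 313.5 and 375.5 (0.26).

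The gap between muscle and ubiquitous isoform was 1.55 for Cox8, 0.99 for Cox7a and 0.92 for Cox6a, against a technical SD of 0.41 for such a gap. The medians of the isoform classes were 1.25 and 0.06. Over the 7 alternatives the muscle median ran from 1.19 to 1.32 and the ubiquitous one from 0.05 to 0.12, and *Cox8a* changed sign after quantile normalization. Without the 3 muscle isoforms the median of complex IV was 0.19 and that of the remaining 77 subunit genes 0.41. The value of 0.19 still counts the isoforms of other tissues and *Cox7a2l*.

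**Figure D2:**
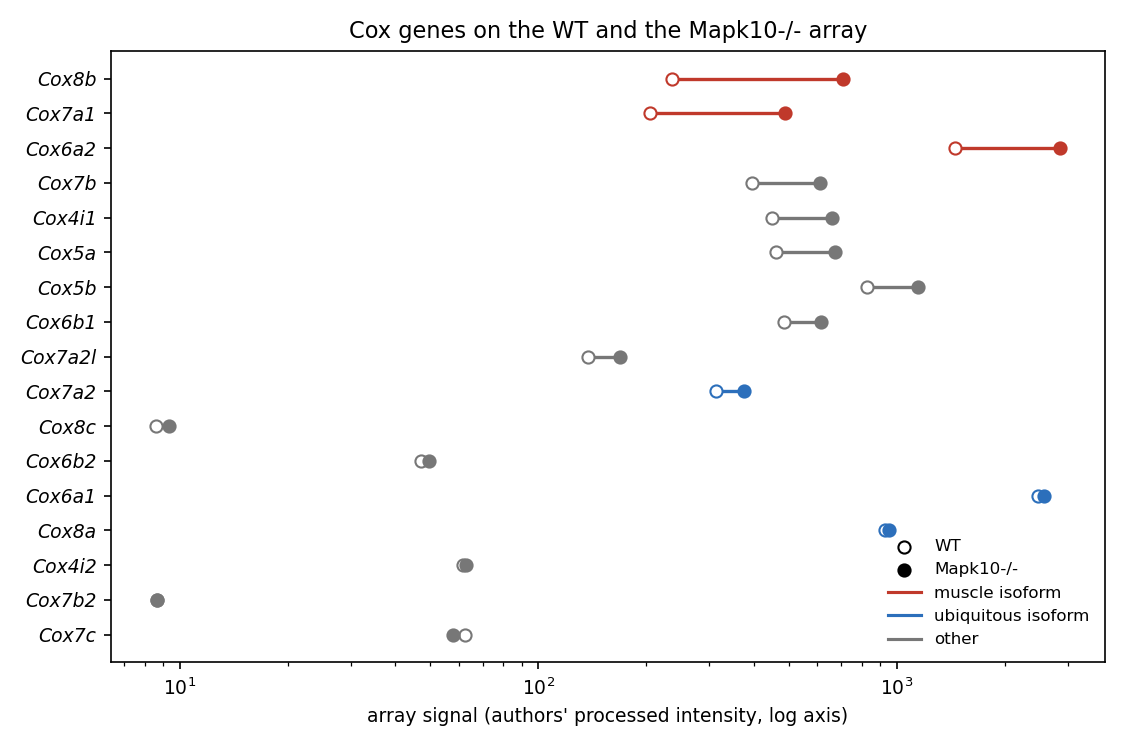
Signal of the 17 *Cox* genes on the WT array (open circles) and the *Mapk10*-/- array (filled circles), on a log axis, ordered by difference, with muscle isoforms in red and ubiquitous isoforms in blue (circles of *Cox7b2* coincide). The longest lines are those of *Cox8b*, *Cox7a1* and *Cox6a2*, 3.01, 2.38 and 1.96-fold, while *Cox6a1* and *Cox8a* hardly move; signals compare within a gene only.

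The subunits of cytochrome c oxidase that have no such pair of isoforms lay between these classes, except *Cox7c*. *Cox7b*, on the X chromosome, had 395.7 and 612.6 (0.63) and passed 1.5-fold, although a dimmer probe of it gave 0.29. Both probes averaged gave 0.46 and quantile normalization 0.58, each under 1.5-fold. *Cox4i1*, the common form of subunit 4, had 449.0 and 662.4 (0.56), and *Cox5a* had 461.6 and 675.3 (0.55). *Cox5b* was at 0.47 and *Cox6b1* at 0.34, while *Cox7c* had 62.4 and 58.0 (-0.10). The dimmer probe of *Cox5b* was at -0.15, so its value rests on the probe used. The median of these 6 genes was 0.51.

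Isoforms known from other tissues had differences near 0, with a median of 0.05 over 4 genes. *Cox4i2*, known from lung and oxygen-sensing cells, had 61.9 and 63.0 (0.03), and the testis isoform *Cox6b2* had 47.2 and 49.6 (0.07). The testis isoforms *Cox7b2* and *Cox8c* had signals of 8.64 and 8.64 and of 8.61 and 9.35. *Cox7a2l*, a factor that joins complexes into supercomplexes and is no subunit of the free enzyme, had 137.9 and 169.7 (0.30).

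Promoter sequences of 300 bases, from 250 before the transcription start to 50 after it, were taken from RefSeq on GRCm38.p6 for the isoform genes, since these genes carry the sharpest contrast of the set. The table used matched 65 of the 80 genes with 70 promoters, and *Cox6a2* was not among them. Muscle isoforms come first, then the ubiquitous isoforms, and capitals mark matches on either strand to an E-box (CANNTG, the core bound by myogenic and many other bHLH factors) or to an NRF1 site (GCGCANGCG). *Cox7a1* is at chr7:30183921-30184220 (plus strand), *Cox8b* at chr7:140900397-140900696 (minus strand), *Cox6a1* at chr5:115348909-115349208 (minus strand), *Cox7a2* at chr9:79759804-79760103 (minus strand) and *Cox8a* at chr19:7217567-7217866 (minus strand).
Cox7a1: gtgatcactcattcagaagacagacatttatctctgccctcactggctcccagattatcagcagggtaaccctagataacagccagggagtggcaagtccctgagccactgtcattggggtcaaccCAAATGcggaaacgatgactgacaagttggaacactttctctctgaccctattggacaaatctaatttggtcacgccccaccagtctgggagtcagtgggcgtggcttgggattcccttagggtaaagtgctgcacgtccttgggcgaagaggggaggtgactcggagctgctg
Cox8b: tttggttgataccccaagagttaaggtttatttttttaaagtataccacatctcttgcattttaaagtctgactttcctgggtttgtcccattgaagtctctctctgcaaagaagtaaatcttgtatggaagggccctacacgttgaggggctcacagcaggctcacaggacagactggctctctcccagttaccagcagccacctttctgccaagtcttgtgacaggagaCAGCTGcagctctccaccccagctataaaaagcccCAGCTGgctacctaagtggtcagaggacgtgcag
Cox6a1: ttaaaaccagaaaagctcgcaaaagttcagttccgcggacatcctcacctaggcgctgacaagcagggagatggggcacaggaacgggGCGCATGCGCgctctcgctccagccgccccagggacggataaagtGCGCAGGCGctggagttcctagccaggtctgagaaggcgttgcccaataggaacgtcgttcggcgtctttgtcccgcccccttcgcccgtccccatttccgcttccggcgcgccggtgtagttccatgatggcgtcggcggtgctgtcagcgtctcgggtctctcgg
Cox7a2: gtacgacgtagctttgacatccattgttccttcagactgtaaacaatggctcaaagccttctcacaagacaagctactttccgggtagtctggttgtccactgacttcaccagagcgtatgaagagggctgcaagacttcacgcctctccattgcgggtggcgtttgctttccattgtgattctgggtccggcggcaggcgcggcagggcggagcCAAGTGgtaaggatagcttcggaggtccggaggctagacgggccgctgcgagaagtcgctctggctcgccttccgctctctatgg
Cox8a: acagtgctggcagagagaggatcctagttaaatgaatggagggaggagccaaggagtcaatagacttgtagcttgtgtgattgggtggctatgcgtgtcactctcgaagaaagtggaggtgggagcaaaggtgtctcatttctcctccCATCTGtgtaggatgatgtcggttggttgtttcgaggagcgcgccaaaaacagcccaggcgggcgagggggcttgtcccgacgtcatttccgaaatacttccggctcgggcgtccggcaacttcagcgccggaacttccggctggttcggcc

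The muscle isoform promoters held few CpG dinucleotides, 2 in *Cox8b* and 7 in *Cox7a1*, against 32 in *Cox6a1*, 20 in *Cox7a2* and 19 in *Cox8a*. The median was 19 over the 70 subunit promoters and 7 over all 32851 promoters of the table. *Cox8b* had the lowest number of the 70, and only *Cox8b* and *Cox7b* had 5 or fewer, which 43.6% of all promoters had. *Cox8b* held 2 E-boxes, both CAGCTG, which start at -19 and 17 from the transcription start. *Cox7a1*, *Cox7a2* and *Cox8a* held 1 E-box each, and *Cox6a1* held none but 2 separate stretches that match the NRF1 site. An E-box stood in 68.6% of the subunit promoters and in 72.3% of all promoters, so its presence does not mark out the muscle isoforms.

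Across the 70 promoters the NRF1 site stood in 27.1%, against 6.25% of all promoters of the same length. The subunit promoters had a median of 19 CpG and 57.5% GC, against 7 and 52.7% over all promoters. The shares over all promoters were not matched for this, here and for the motifs below. The YY1 site (AAGATGGC) stood in 12.9% against 2.75%, the GABPA site (ACCGGAAG) in 10% against 2.30% and the ERR site (AAGGTCA) in 8.57% against 4.72%. The MEF2 site (CTAAAAATA) stood in none, against 0.517% of all promoters. These factors are known regulators of mitochondrial or muscle genes. The medians of genes with and without a match were close, and went either way. The 18 genes with an NRF1 match had a median of 0.37 and those without one 0.43. For the ERR site the medians were 0.38 over 6 genes and 0.41, for the GABPA site 0.44 over 7 genes and 0.40, and for the YY1 site 0.47 over 9 genes and 0.41.

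ATP synthase is built of a catalytic F1 head, a ring of c subunits in the membrane, a peripheral stalk that holds the head and several small membrane subunits. None of its 17 genes passed 1.5-fold and none was below 0. In the head, *Atp5a1*, the alpha subunit, had 2112 and 2859 (0.44), and *Atp5b*, the catalytic beta subunit, had 2797 and 3397 (0.28). *Atp5d*, the delta subunit, was at 0.43, *Atp5c1*, the rotating gamma subunit, at 0.39 and *Atp5e*, the epsilon subunit, at 0.49. The value of *Atp5e* rests on the probe used, since its dimmer probe was at -0.31. The median of the 5 head genes was 0.43.

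The 3 genes for the identical c subunit were at 0.40 (*Atp5g3*), 0.32 (*Atp5g2*) and 0.12 (*Atp5g1*). In the peripheral stalk *Atp5j*, coupling factor 6, had 79.8 and 113.0 (0.50), whereas *Atp5h*, subunit d, had 1381 and 1517 (0.14). *Atp5o*, which joins the stalk to the head, had 69.3 and 75.3 (0.12), and *Atp5pb*, subunit b, had 694.4 and 741.4 (0.09). Stalk genes had the lowest median of the enzyme, 0.13 over 4 genes, though the dimmer probe of *Atp5h* gave 0.46. Among the small membrane subunits *Atp5md*, also known as DAPIT, had 1194 and 1783 (0.58), just under 1.5-fold and past it after centring, loess or quantile normalization. *Atp5mpl* was at 0.46, *Atp5l* at 0.44, *Atp5k* at 0.23 and *Atp5j2* at 0.08.

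Subunits encoded in mitochondrial DNA did not share the shift. Of the 13 such genes, 10 had a probe of their own, and all 10 were slightly lower on the *Mapk10*-/- array, with a median of -0.12. *COX1*, the catalytic subunit of cytochrome c oxidase, had 13314 on the WT and 12448 on the *Mapk10*-/- array (-0.10). *CYTB*, the cytochrome b of complex III, had 12313 and 11265 (-0.13). For complex I, *ND4* had 13354 and 12860 (-0.05), *ND1* was at -0.09 and *ND5* at -0.11. *ND6*, the 1 gene of the set on the opposite strand of mitochondrial DNA, had 2076 and 1491 (-0.48).

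Apart from *ND6* these values lay within the technical SD of 0. The other 9 signals were close to the top of the scale, which ended at 13691 on the WT and 12996 on the *Mapk10*-/- array, and whether the scanner was saturated there was not tested. After median centring, loess or quantile normalization the median ran from -0.05 to -0.02, with 2 to 4 of the 10 genes above 0. The direction of these genes is therefore not settled, but in all 7 alternatives their median stayed below that of the nuclear subunits, which was at least 0.37.

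Other genes of the same machinery were set beside the subunits. Of 43 measured assembly factors, which build the complexes but are not part of them, 40 were above 0, 7 of them past 1.5-fold, and no gene fell past it. Their median was 0.35. *Sdhaf3*, an assembly factor of complex II, had 40.0 and 73.0 (0.87), *Ecsit*, of complex I, had 141.3 and 251.3 (0.83), and *Cox10*, which makes the heme of cytochrome c oxidase, had 137.0 and 238.6 (0.80). *Cox18*, which inserts the mitochondrially encoded COX2 protein into the membrane, went the other way, with 209.5 and 141.2 (-0.57).

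Regulators of these genes were mixed, with a median of 0.17 and 3 of 16 at least 1.5-fold higher. The coactivators *Ppargc1a* (95.9 and 211.4, a difference of 1.14) and *Ppargc1b* (0.93) and the muscle regulator *Perm1* (50.6 and 143.0, a difference of 1.498) were the 3. The DNA-binding factors through which these coactivators act were not higher by that much. *Esrra* was at -0.28, *Esrrg* at 0.18, *Nrf1* at 0.15 and *Gabpa* at -0.18, and *Tfam*, the packaging and transcription factor of mitochondrial DNA, was at 0.15.

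**Figure D3:**
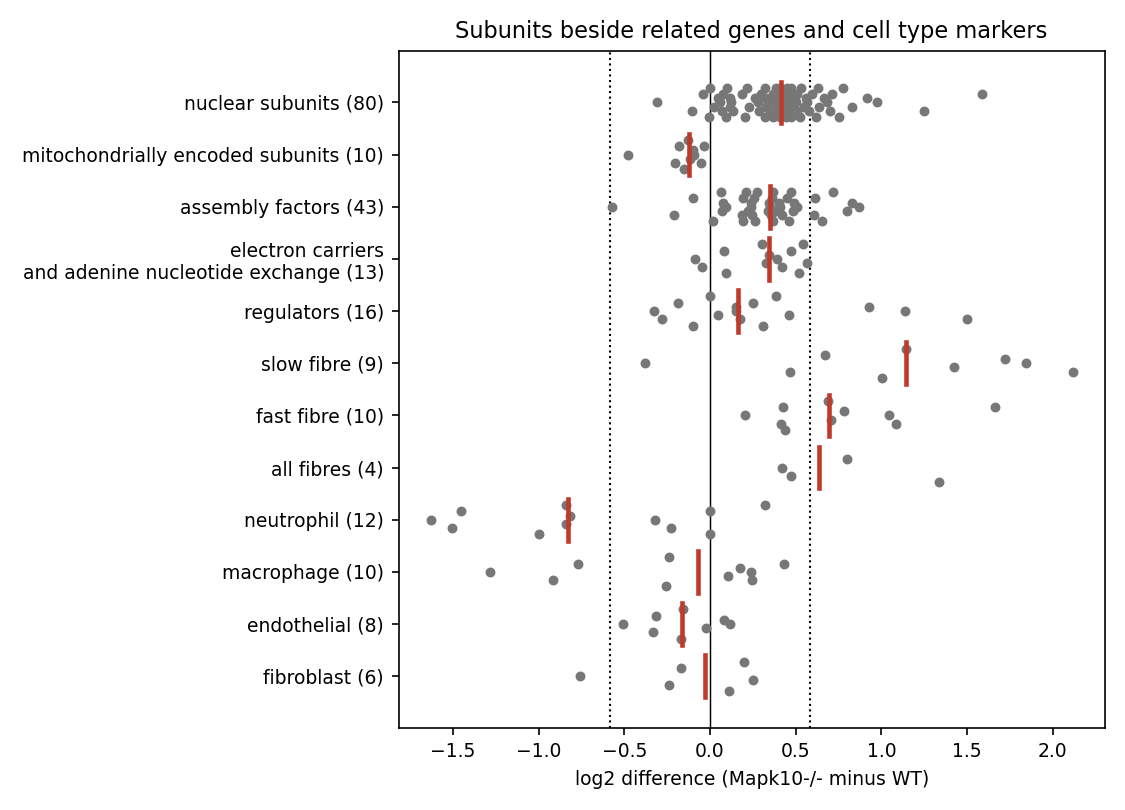
Log2 differences (*Mapk10*-/- minus WT) of the 80 nuclear subunit genes, related gene lists and cell type markers, with the number of measured genes in brackets. Points are genes, red bars are medians and dotted lines mark 1.5-fold; subunits (0.42) and assembly factors (0.35) lie between the mitochondrially encoded genes (-0.12) and the fibre genes (0.64 to 1.14).

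Most markers of muscle fibres were also higher on the *Mapk10*-/- array, and the medians of the 3 fibre lists were above that of the subunits. Slow fibre markers had a median of 1.14 (7 of 9 at least 1.5-fold higher), fast fibre markers 0.70 (6 of 10) and the 4 markers of all fibres 0.64. The slow fibre tropomyosin gene *Tpm3* went the other way, with 587.9 and 451.9 (-0.38), and the fast myosin gene *Myh4* was at 0.20. *Mb*, myoglobin, the oxygen store of oxidative fibres, had 275.6 and 694.9 (1.33), close to the muscle *Cox* isoforms. The summed signal of the slow markers was 2281 on the WT and 3889 on the *Mapk10*-/- array, that of the fast markers 29635 and 41814, and that of the 80 subunit genes 37284 and 50268. Of 12 neutrophil markers 7 were at least 1.5-fold lower (median -0.83, summed signal 1376 and 706.6). Among 10 macrophage markers 3 were lower by at least 1.5-fold, and 5 were above 0 (median -0.07). Endothelial markers had a median of -0.16. Medians were -0.03 for fibroblast, -0.25 for adipocyte, 0.04 for brown adipocyte and -0.09 for Schwann cell markers. No marker of these lists had a signal of 0. In tissue RNA, more muscle fibres and more transcript per fibre cannot be told apart, and the part of fibre content in the subunit shift was not tested.

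Of the 80 subunit genes 3 are on the X chromosome, *Ndufa1*, *Ndufb11* and *Cox7b*. Their differences were 0.46, 0.91 and 0.63, all upward, while the 899 X-linked genes had a median of 0.00 and *Xist* was far lower. The 77 autosomal subunit genes had a median of 0.41. Sex and genotype cannot be told apart in the autosomal values either, and the part of sex was not tested.

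**Figure D4:**
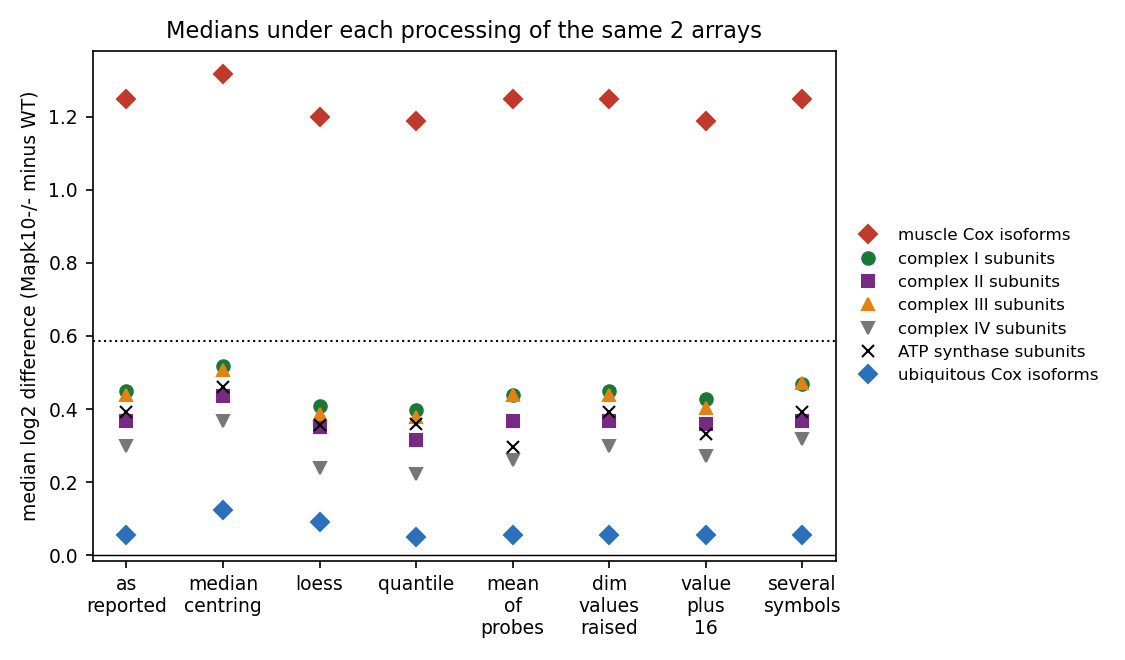
Median log2 difference of each complex and of the muscle and ubiquitous *Cox* isoforms, as deposited and under the 7 alternatives (x axis), on the same 2 arrays; the dotted line marks 1.5-fold. The muscle isoforms stay between 1.19 and 1.32 and the ubiquitous ones between 0.05 and 0.12, and the complexes keep between them.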

How the data were processed

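RNA of 3 mice per genotype was pooled and hybridised to 1 Affymetrix MoGene 2.0 ST array for WT and 1 for *Mapk10*-/-. The deposited table holds the authors' processed intensity of 41345 probes on a linear scale, with medians of 43.2 for WT and 41.2 for *Mapk10*-/-. How the authors corrected background, summarised probes or normalized the arrays, and with which software, was not stated in what was read here. Probe symbols came from the platform annotation (23521 probes with 1 symbol, 1820 with several, 16004 unnamed) and were updated by gene identifier for 23328 probes through RefSeq (GRCm38.p6). Each of 22180 genes was read by its brightest probe, on log2 of the deposited value with no filter and no pseudocount. The technical SD is the root mean square gap between both probes of a gene, divided by the square root of 2.

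A single array per genotype allows no test. Described by name were the genes past 1.5-fold, the 3 highest and lowest of each complex, all isoform classes, all Sdh genes and up to 3 genes per companion list. The other subunit genes and further companion genes were added after their values were seen. The subunits and lists were chosen with earlier results of these data known. As alternatives, arrays were centred on their probe median, fitted by loess (span 0.3) or quantile normalized. Genes were also read by their mean over probes, with dim values lifted to the 25th percentile, with 16 added before taking log2, or with multi-symbol probes assigned to every symbol they carry. The code was tested on simulated data. Scripts ran in Python 3.11.15. Tables used pandas 2.3.3 and numpy 2.4.6. Loess came from statsmodels 0.14.6, and matplotlib 3.10.9 drew the plots.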

Additional observations from a re-analysis of the deposited data

How the results depend on the processing

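No paired analysis was possible because only 1 array was made for either genotype. The alternatives therefore speak of processing alone. A median counted as moved when it shifted by more than the technical SD of a median of that many genes. The median of all subunit genes was 0.48 after centring, 0.37 after loess and 0.37 after quantile normalization, against 0.42 as deposited. Centring also gave 0.52 for complex I and 0.42 for assembly factors, and the mean of all probes gave 0.30 for ATP synthase. Centring by construction adds 0.07 to every difference, and its medians moved by that amount. The cause of the other moves was not tested. The subunit genes at least 1.5-fold higher numbered 12 to 21 over the 7 alternatives and 2 at a fold of 2, which is stricter by construction, and none was that much lower in any of these settings. After loess, 12 of the 15 genes remained, without *Ndufa6*, *Ndufa9* and *Ndufc1*, and after quantile normalization 11, without these 3 and *Cox7b*. Over all genes, 572 were higher and 263 lower with 16 added to each value, and 491 were lower with dim values raised, against 910 and 819. The other 157 values for counts, medians and isoform gaps moved less than this, and no median changed sign. Leaving out the inhibitor and coupling factor B genes of ATP synthase was not run, since the rule found none. Background values were not analysed here, so limits set by dim signals are unknown.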

Other observations

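Genes that carry electrons to the chain or move its substrates and product across the mitochondrial membranes were also measured. Of 13 such genes 11 were above 0, none passed 1.5-fold in either direction and the median was 0.34. *Cycs*, the cytochrome c of somatic tissues, had 1609.8 on the WT and 2150.5 on the *Mapk10*-/- array (0.42), while *Cyct*, the testis form, had 12.4 and 12.0. *Etfb*, a subunit of the flavoprotein that brings in electrons from fatty acid oxidation, was at 0.56 and *Coq9*, of ubiquinone synthesis, at 0.48.

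The ADP/ATP carriers showed a split like that of the *Cox* isoforms. *Slc25a4*, the main carrier of heart and skeletal muscle, had 933.0 and 1359 (0.54). *Slc25a5*, found more in dividing and other cells, had 1767 and 1664 (-0.09), within the technical SD of 0. Among the channels of the outer membrane *Vdac1* was at 0.52, *Vdac3* at 0.33 and *Vdac2* at 0.08. These pairs were picked out after their values had been seen.

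Probes that carry several gene symbols, among them a symbol of the subunit set, numbered 10. Their differences ran from -0.07 to 1.09, and 9 of the 10 were above 0. Which of the genes each of them reads was not tested.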
